A study of Mus musculus with 6 samples.

Results

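The histone genes of mouse gastrocnemius were followed here as 1 set. They were chosen by symbol from the table of expected counts: every symbol that begins with Hist and a digit, H2af or H3f, and also H1f0 and H1fx. This gave 82 of the 24054 genes in the table. Of these, 68 lie in the histone gene clusters and are called cluster genes, and 14 are variant genes that stand alone in the genome.

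The study deleted or overexpressed interferon regulatory factor 4 (IRF4) in muscle, and 6 RNA-seq libraries of gastrocnemius were analysed here, 3 from MI4KO and 3 from MI4OE mice. MI4KO mice carried Irf4 flox/flox alleles and Myl1-Cre, a Cre driven from a myosin light chain gene of skeletal muscle fibres, so other cell types of the tissue keep Irf4. MI4OE mice carried the same Myl1-Cre with a Rosa26-LSL-IRF4 transgene, in which Cre removes a stop cassette. Per the labels all 6 mice were male and of strain C57BL/6. The labels also list a high fat diet for each of them, while the study's text has chow, so the diet is in doubt. No age was given in the labels. Gastrocnemius of wild-type or flox mice was not analysed here, and a difference cannot be assigned to the loss or to the gain of IRF4. The replicates are single libraries, and nothing in the labels ties them across groups.

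Total expected counts ran from 18828605 to 29239585 per library, of which 5801 to 9485 belonged to cluster genes and 8826 to 13682 to variant genes. The MI4KO libraries, replicates 1 to 3 in order, held 6, 0 and 2 counts of Irf4, against 2864, 10557 and 5911 in MI4OE, which goes with the labels. Levels are given as CPM, counts scaled by TMM to a common depth, when libraries are compared. Deposited TPM, which accounts for transcript length but carries no TMM scaling, is given when genes are compared and for sums of markers. Skeletal muscle fibre markers summed to between 198253 and 296258 TPM per library. Several lists of markers of other cells had more members at an unadjusted p under 0.05 than the 7.58% of all genes. Of 8 adipocyte markers 6 were lower in MI4OE at this threshold, and the list summed to 457 to 2176 TPM in MI4KO and 401 to 778 TPM in MI4OE. Of 8 fibroblast markers 7 were higher, with sums of 140 to 186 TPM against 239 to 318 TPM, and of 8 endothelial markers 4 were higher, with 57.4 to 107 TPM against 122 to 198 TPM. Of 8 slow fibre markers 6 were higher, and their sum of 10587 TPM in MI4OE replicate 1 stood far above the 14.1 to 1009 TPM of the other libraries. Of 7 erythroid markers 2 were higher, with 725 to 983 TPM in MI4KO and 915 to 2360 TPM in MI4OE. Macrophage, lymphocyte and satellite cell lists had 0 markers at that threshold, although only 1 of 8 lymphocyte markers had enough counts to be tested. The part of these cells in the histone values was not tested except where values are given below. Fewer cells of a type and less RNA per cell cannot be told apart in such tissue.

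Histones wrap DNA into nucleosomes, each built from the core histones H2A, H2B, H3 and H4, with the linker histone H1 bound outside. Most are encoded by multicopy cluster genes that are switched on when a cell copies its DNA. Their mRNAs end in a conserved stem-loop in place of a poly(A) tail and are degraded when replication stops. Variant genes are transcribed throughout the cell cycle into polyadenylated mRNAs, and their proteins replace the cluster-encoded ones in cells that have stopped dividing, such as muscle fibres. The libraries were enriched for mRNA per the labels, which do not say by what means, and how far each mRNA end was captured was not tested.

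The class of each gene was checked against the sequence of its transcripts in GENCODE M21 (build GRCm38). The histone stem-loop, searched as 16 bases on the transcript strand with 3 of them free, was found in 49 of 141767 transcripts, and 45 of these 49 belonged to the histone genes described here. It was present in 42 of 68 cluster genes and in 1 of 14 variant genes, H2afx. In 15 of the 26 cluster genes without it the transcript model ends fewer than 30 bases after the stop codon, before a stem-loop could lie. The poly(A) signal AATAAA was found in the last 40 bases of at least 1 transcript in 8 variant genes and 15 cluster genes. The stem-loops below belong to the genes on which the results turn and to H2afx, and capitals mark the stem-loop itself.
Hist1h2bj (chr13:22043633-22043658, plus strand): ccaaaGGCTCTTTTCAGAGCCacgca
Hist1h2bk (chr13:22036295-22036320, plus strand): ccaaaGGCTCTTTTAAGAGCCactaa
Hist1h4h (chr13:23531453-23531478, plus strand): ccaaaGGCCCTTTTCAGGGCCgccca
Hist1h4i (chr13:22040961-22040986, minus strand): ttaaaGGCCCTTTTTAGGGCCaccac
Hist1h1c (chr13:23739507-23739532, plus strand): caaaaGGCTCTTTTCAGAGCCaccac
H2afx (chr9:44335235-44335260, plus strand): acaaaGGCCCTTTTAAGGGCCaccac

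Some cluster genes have a second, longer form that runs past the stem-loop. The GENCODE model of Hist1h1c extends 840 bases beyond it and has a poly(A) signal, and that of Hist3h2a extends 1643 bases. H2afx extends 822 bases. Among cluster genes with enough counts to be tested, 9 of 19 had a model extending more than 100 bases past the stem-loop. Among the others 12 of 49 had one. An extension could be scored only where a stem-loop was found, in 15 of the 19 and in 27 of the 49. The transcripts to which the authors assigned reads were often shorter: the longest deposited model of Hist1h1c is 725 bases against 1560 in GENCODE, and that of Hist3h2a is 508 against 2146.

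Cluster genes of 1 type are so alike that a read often fits several of them. Of the stretches of 50 bases, the read length, in the coding part of a cluster gene, a median of 24.7% occurred in the transcripts of no other gene, and in 13 of 67 cluster genes with a value there was no such stretch. The median was 86.7% over 13 variant genes, although H2afz had 0% and H3f3a had 7.18%. RSEM divides a read among the transcripts it matches, so the counts of single copies are estimates that depend on one another. Hist1h2bj, Hist1h2bk and Hist1h2bl, which return below, share 99.0%, 97.9% and 98.4% of their coding bases with Hist1h2bc, the most abundant H2B gene here. Their opening 60 coding bases in GRCm38 are given with every base that differs from Hist1h2bc in capitals.
Hist1h2bc (chr13:23684232-23684291, plus strand): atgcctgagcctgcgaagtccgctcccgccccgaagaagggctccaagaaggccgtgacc
Hist1h2bj (chr13:22043230-22043289, plus strand): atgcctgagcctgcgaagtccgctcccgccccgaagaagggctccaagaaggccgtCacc
Hist1h2bk (chr13:22035887-22035946, plus strand): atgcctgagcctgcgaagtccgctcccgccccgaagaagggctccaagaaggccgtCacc
Hist1h2bl (chr13:21716084-21716143, minus strand): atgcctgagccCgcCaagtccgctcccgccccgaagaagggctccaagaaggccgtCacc
Hist1h2bj and Hist1h2bk are identical over this stretch. Over the whole coding part 25.9% of the 50-base stretches of Hist1h2bj, 4.82% of those of Hist1h2bk and 17.2% of those of Hist1h2bl occur in no other gene. Hist1h2ba, which encodes the testis H2B, is further away, with 87.4% of its coding bases shared with Hist1h2bc and 61.8% of its stretches in no other gene.

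Histone mRNA of both classes was present in gastrocnemius. Summed over all 68 genes, cluster genes had 814, 985 and 1119 TPM in the MI4KO libraries (replicates 1 to 3 in order), and 919, 991 and 1011 TPM in MI4OE. The 14 variant genes had 429, 544 and 530 TPM in MI4KO, and 482, 536 and 559 TPM in MI4OE. The groups overlapped in both sums. A few genes carried the cluster total: Hist2h2aa1, Hist1h2bc and Hist1h1c made up 67.1% of its mean TPM, and the top 10 genes 94.7%. Of the 82 genes, 14 had 0 counts in every library, among them the 3 testis variants H2afb1, H2afb2 and H2afb3, and 0 counts allow at most 0.101 to 0.148 CPM in a library when 3 counts are taken as the floor. Another 39 genes had counts but too few to be tested, the highest being Hist1h3i with a mean of 2.07 TPM. The remaining 29 genes, 19 cluster and 10 variant, were tested.

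**Figure D1:**
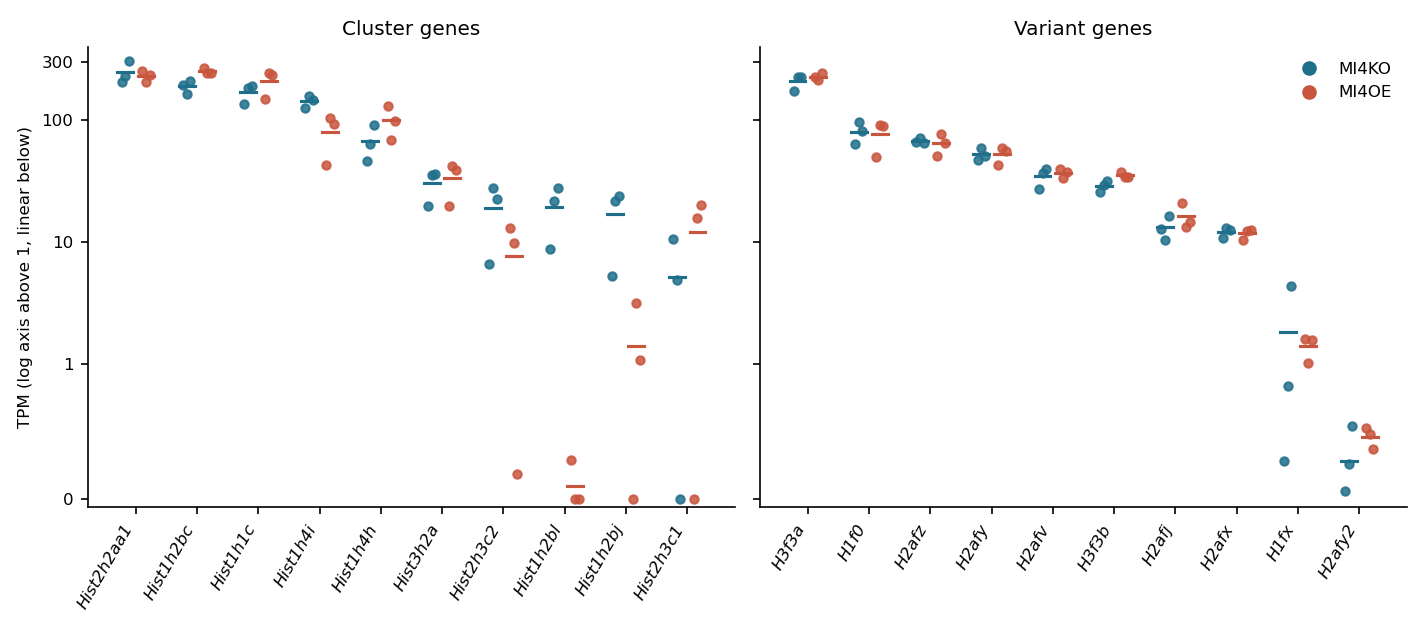
TPM of the 10 most abundant tested cluster genes (left) and the 10 tested variant genes (right) in each MI4KO and MI4OE library, on an axis that is logarithmic above 1 and linear below. Points are libraries and bars are group means, and the groups overlap for every variant gene except H3f3b, whereas Hist1h2bl, Hist1h2bj and Hist1h4i have higher MI4KO points throughout and Hist1h2bc has higher MI4OE points.

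No histone gene differed between MI4OE and MI4KO at an adjusted p under 0.05 by edgeR's quasi-likelihood test, where 0.0237% of all 12660 genes tested did, whereas 5 of the 29 did so at an unadjusted p under 0.05, or 17.2%, against 7.58% of all genes. At the adjusted threshold DESeq2 gave 4 histone genes, where it called 0.877% of all genes, and the exact test of edgeR gave 4, where it called 0.853%. Both named the H2B genes described next. All 5 were cluster genes lower in MI4OE by more than 1.5-fold, where 2.28% of all genes were lower by this criterion. The criterion for a higher level was met by 0 histone genes and by 4.36% of all genes. On the CPM scale the groups did not overlap in the same 5 genes, against 12.8% of all genes. Since near-identical copies draw on shared reads, these 5 are not 5 separate observations. In addition, Hist1h2ba, Hist1h2bj, Hist1h2bk and Hist1h2bl passed the filter on low counts through MI4KO: each reached its cutoff of 0.379 CPM in 3 MI4KO libraries but in at most 1 MI4OE library. Their presence among the tested genes thus rests on the difference itself, and nothing is read from the members' share against that of all genes. Of the 18 histone genes that reached the cutoff in all 6 libraries, 1 had an unadjusted p under 0.05, Hist1h4i. The median log2 fold change was -0.24 over the 19 cluster genes, of which 13 were lower and 6 higher, and 0.00033 over the 10 variant genes, of which 5 were lower and 5 higher. Over all tested genes the median was -4.3e-05. Without the 4 H2B genes described below, an alternative chosen after their values were seen, the cluster median was -0.14.

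**Figure D2:**
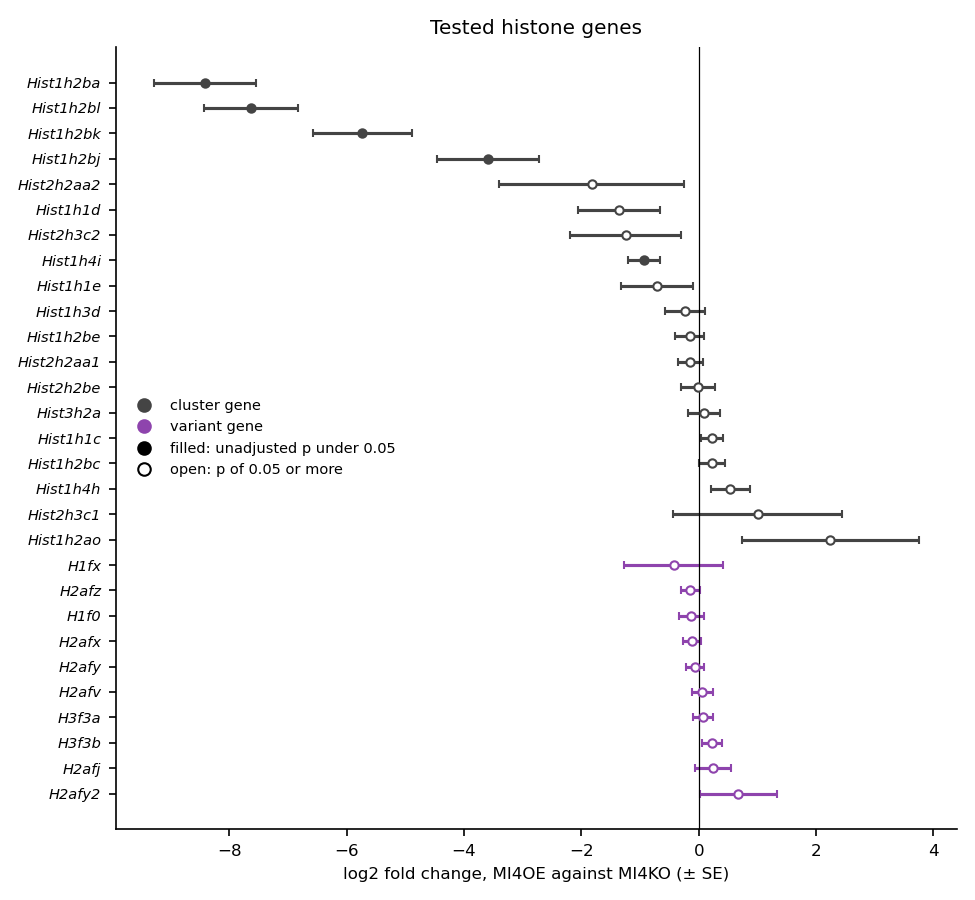
Log2 fold change of each of the 29 tested histone genes in MI4OE against MI4KO, with bars of 1 standard error. The 10 variant genes lie between -0.43 and 0.67, and the 5 filled points, which mark an unadjusted p under 0.05, are all cluster genes on the lower side.

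The strongest differences were in 4 H2B genes of the Hist1 cluster. They were near absent from MI4OE, except that Hist1h2bj kept 0.565 CPM in MI4OE replicate 2. Hist1h2bl had 2.09, 3.76 and 5.49 CPM in the MI4KO libraries (replicates 1 to 3 in order), and 0.0620, 0 and 0 CPM in MI4OE. In counts this was 309 in MI4KO against 1 in MI4OE, a ratio of 278 per sequenced depth with an exact 95% interval of 49.6 to 11032 that covers counting error only. Its unadjusted p was 1.72e-05 and its adjusted p was 0.0545 by edgeR's quasi-likelihood test. Hist1h2bk had 1.36, 2.22 and 3.70 CPM in MI4KO, and 0, 0.109 and 0 CPM in MI4OE. Its ratio, from 199 counts against 3, was 59.8 with a counting interval of 20.2 to 292. The adjusted p was 0.255 in the edgeR fit. All 3 counts lay in MI4OE replicate 2. The log2 difference of -5.73 ran from -8.90 to -5.25 across fits without 1 library. Every MI4KO library lay above every MI4OE library in both genes.

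Hist1h2bj had 1.25, 3.67 and 4.71 CPM in MI4KO, and 0, 0.565 and 0.198 CPM in MI4OE. From 264 counts against 20 its ratio was 11.9, with a counting interval of 7.55 to 19.8. The edgeR fit gave a log2 difference of -3.59 (SE 0.87, unadjusted p = 0.00371, adjusted p = 0.477). Across fits without 1 library this difference ran from -5.06 to -3.07. Hist1h2ba had 1.19, 1.60 and 2.27 CPM in MI4KO and 0 CPM in each MI4OE library. With 3 counts per library as the floor it was at least 13.2-fold lower in MI4OE. Its adjusted p was 0.216 in the edgeR fit. Every MI4KO library again lay above every MI4OE library.

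**Figure D3:**
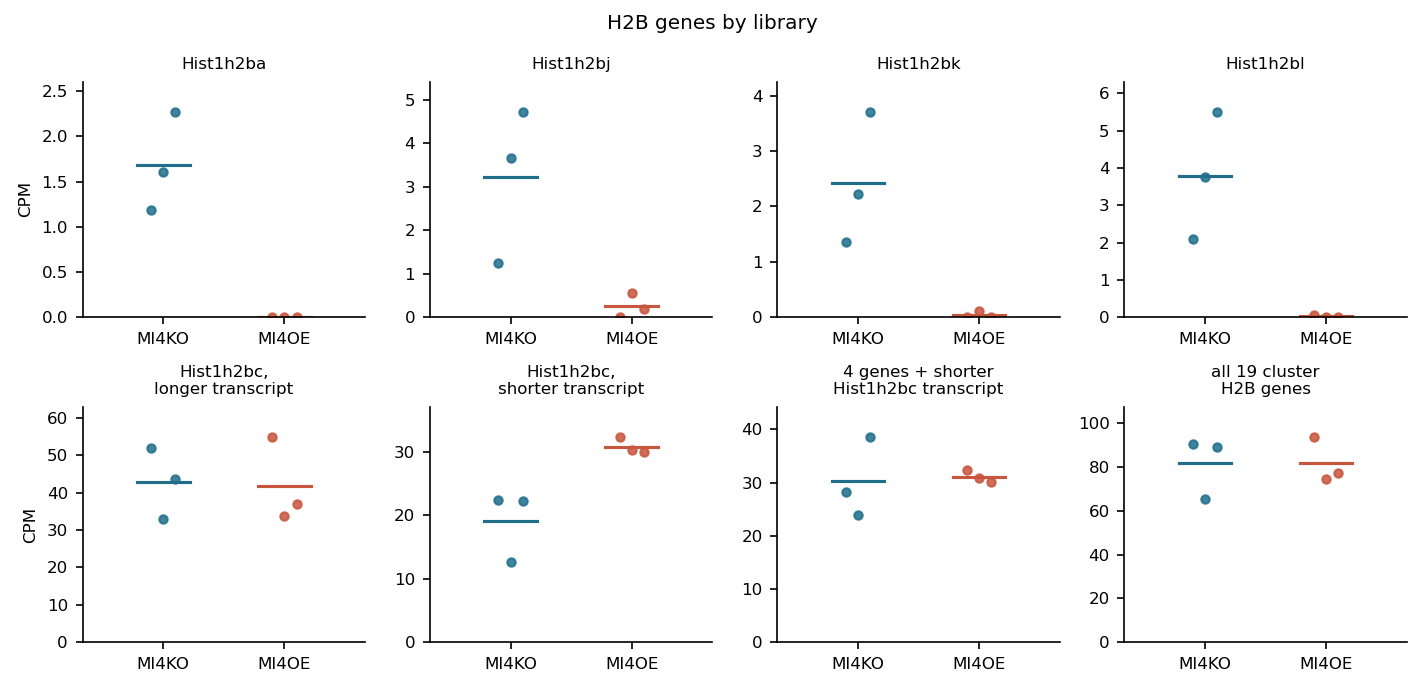
CPM by library for the 4 H2B genes lower in MI4OE (top row), the longer and the shorter transcript of Hist1h2bc, the 4 genes added to that shorter transcript, and the sum of all 19 cluster H2B genes (bottom row). Points are libraries and bars are group means. The 4 genes fall to or near 0 in MI4OE, apart from 0.565 CPM of Hist1h2bj in replicate 2. The shorter Hist1h2bc transcript lies at 29.95 to 32.3 CPM in MI4OE against 12.7 to 22.4 CPM in MI4KO. Both sums overlap between the groups.

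The H2B total did not follow these 4 genes. All 19 cluster H2B genes together had 90.5, 65.4 and 89.2 CPM in MI4KO, and 93.3, 74.3 and 77.3 CPM in MI4OE, so the groups overlapped. The 4 genes took 6.51%, 17.2% and 18.1% of these counts in MI4KO, and 0.0664%, 0.906% and 0.256% in MI4OE. Summing all H2B copies of the Hist1 cluster before the fit gave a log2 difference of -0.0045 (SE 0.20, edgeR adjusted p = 0.999).

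Hist1h2bc has a transcript of 469 bases and a longer one of 728 bases in the deposited files. The shorter one had 22.4, 12.7 and 22.3 CPM in MI4KO, and 32.3, 30.3 and 29.95 CPM in MI4OE. It was higher in every MI4OE library. The longer one had 51.9, 33.0 and 43.5 CPM in MI4KO and 54.7, 33.7 and 37.0 CPM in MI4OE, with overlap. Adding the 4 genes to the shorter transcript gave 28.3, 23.9 and 38.5 CPM in MI4KO, and 32.3, 31.0 and 30.2 CPM in MI4OE, which again overlapped. This sum was chosen after the values were seen and was not tested. Whether reads of 1 source were assigned to different copies in the 2 groups or different copies were transcribed cannot be told apart in estimates of this kind. Hist1h2bc as a whole had 195, 164 and 212 TPM in MI4KO and 268, 245 and 245 TPM in MI4OE, without overlap. On the CPM scale the groups overlapped. These scales differ in the scaling between libraries as well as in the use of transcript length. Which of these made the difference was not tested. Its log2 difference was 0.23 (SE 0.23, edgeR adjusted p = 0.858), with an unadjusted p under 0.05 in 2 of 16 alternative analyses.

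The sum of adipocyte markers had the same order as the 4 genes within MI4KO. The 4 genes summed to 5.89, 11.3 and 16.2 CPM in MI4KO replicates 1, 2 and 3, and the 8 adipocyte markers to 457, 1024 and 2176 TPM. Across groups the sum depends on Fabp4, which alone had 731 of the 778 TPM in MI4OE replicate 1. Without Fabp4 the other 7 markers summed to 137, 287 and 984 TPM in MI4KO and 47.5, 117 and 69.3 TPM in MI4OE, lower in every MI4OE library like the 4 genes. This sum was chosen after the values were seen. Of the 7, Plin4 and Cfd overlapped between the groups. Cfd had 15.3, 139 and 581 TPM in MI4KO and 6.17, 30.7 and 8.60 TPM in MI4OE. Plin4, at 81.2, 59.5 and 64.2 TPM in MI4KO, and Lep, at 7.06, 6.63 and 27.8 TPM, lacked the order of the 4 genes there. Endothelial markers, at 57.4, 105 and 107 TPM, also had that order within MI4KO, but their sums were higher in MI4OE. Macrophage markers, at 51.9, 55.5 and 96.1 TPM in MI4KO, had it too, as did the scarce lymphocyte markers. The sums of both these lists overlapped between the groups. The order within MI4KO was thus not particular to adipocyte markers. The part of these cells in the result was not tested.

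Of the H4 genes, Hist1h4i was lower in MI4OE at an unadjusted p under 0.05. Hist1h4i had 27.5, 24.5 and 26.5 CPM in MI4KO, and 8.19, 17.1 and 15.6 CPM in MI4OE. It was 1.91-fold lower in MI4OE (log2 difference -0.94, SE 0.27, unadjusted p = 0.00922, edgeR adjusted p = 0.521). The groups did not overlap. Hist1h4h, whose coding part shares 95.8% of bases with that of Hist1h4i, had 11.1, 11.1 and 18.5 CPM in MI4KO, and 28.1, 12.6 and 18.7 CPM in MI4OE, and its log2 difference was 0.54 (edgeR adjusted p = 0.779). This value rested largely on MI4OE replicate 1, without which it was 0.20. It was 0.81 without MI4KO replicate 3 (unadjusted p = 0.0477 by edgeR) and 0.78 without MI4OE replicate 2 (unadjusted p = 0.0334 by edgeR). Hist1h4i took 71.1%, 68.8% and 58.8% of the counts of this pair in MI4KO and 22.6%, 57.6% and 45.6% in MI4OE. Together the pair had 38.6, 35.7 and 45.0 CPM in MI4KO, and 36.3, 29.8 and 34.3 CPM in MI4OE. These sums overlapped and had a lower mean in MI4OE, at 33.5 against 39.8 CPM, and all H4 copies of the Hist1 cluster together had a log2 difference of -0.25 (edgeR adjusted p = 0.780).

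The other abundant cluster genes did not pass at an unadjusted p under 0.05, and their groups overlapped. Hist2h2aa1, an H2A gene and the most abundant of all, had 206, 232 and 305 TPM in MI4KO and 255, 206 and 238 TPM in MI4OE, with a log2 fold change of -0.14. Its copy Hist2h2aa2 had 0 to 4.03 TPM, and no 50-base stretch of either gene is its own, so the division between them has no support in coding sequence. Hist1h1c, a linker histone gene, had 136, 185 and 193 TPM in MI4KO and 150, 245 and 236 TPM in MI4OE, with a log2 fold change of 0.23, which was 0.37 without MI4OE replicate 1 (unadjusted p = 0.0434 by edgeR). Hist3h2a, from the small Hist3 cluster, had a log2 fold change of 0.09, with 19.9 to 36.4 TPM in MI4KO and 19.7 to 42.5 TPM in MI4OE.

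Hist2h3c1 and Hist2h3c2 show how far the division between copies can wander within a group. These H3 genes have no 50-base coding stretch of their own, and Hist2h3c1 took 62.5%, 15.3% and 0% of their joint counts in MI4KO and 0%, 62.3% and 99.1% in MI4OE. Their log2 differences were 1.0 (SE 1.44) and -1.25 (SE 0.94). Their sum was steadier, at 7.10, 9.55 and 7.71 CPM in MI4KO and 4.73, 8.07 and 6.66 CPM in MI4OE. All H3 copies of the Hist2 cluster together had a log2 difference of -0.32 (edgeR adjusted p = 0.833). In the 4 H2B genes and Hist1h4i the division followed the groups, and in this pair it did not.

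**Figure D4:**
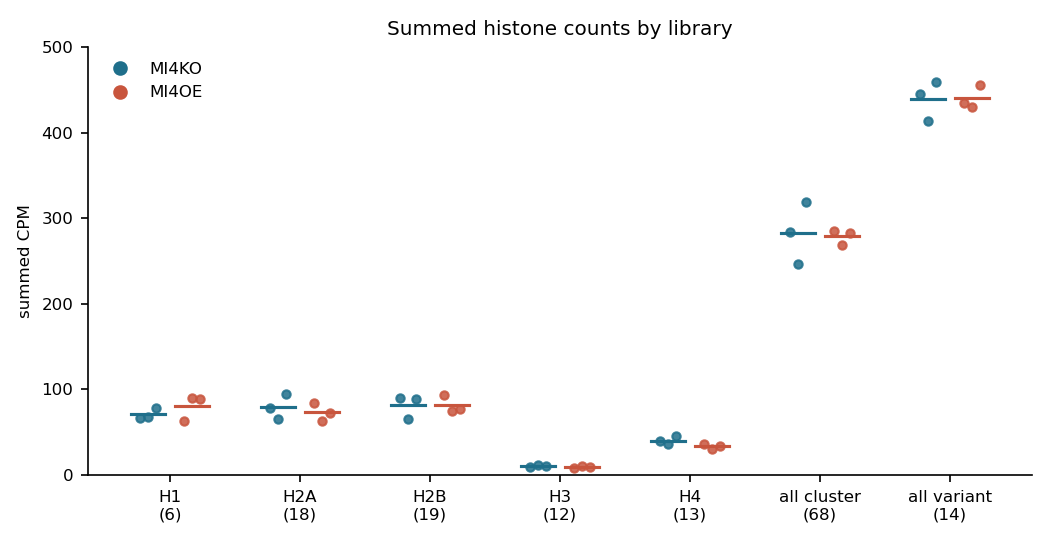
Summed CPM of cluster genes by histone type, of all cluster genes and of all variant genes in each library, with the number of genes in parentheses. Points are libraries and bars are group means, and MI4KO and MI4OE overlap in all 7 sums.

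Sums by histone type overlapped between the groups. In CPM, given as mean ± SD with n = 3 per group, cluster H1 genes summed to 70.8 ± 6.60 in MI4KO and 80.4 ± 15.1 in MI4OE. Cluster H2A genes summed to 79.5 ± 15.01 and 73.5 ± 10.3 CPM, and H2B genes to 81.7 ± 14.1 and 81.7 ± 10.2 CPM. H3 genes summed to 10.9 ± 1.21 and 9.48 ± 1.40 CPM, and H4 genes to 40.3 ± 4.68 and 33.8 ± 3.26 CPM. H3 was thus the scarcest cluster type. The H3 and H4 means were lower and the H1 mean higher in MI4OE, each by more than the SD of at least 1 group, and these sums were not tested. By locus, Hist1 genes summed to 191 ± 22.3 and 195 ± 2.76 CPM, Hist2 genes to 84.1 ± 12.97 and 75.3 ± 8.93 CPM, and Hist3 genes to 7.54 ± 1.56 and 8.28 ± 2.47 CPM, with overlap in each. Hist4 holds the single gene Hist4h4, which had 0 counts in every library.

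All cluster genes together gave 283 ± 35.9 CPM in MI4KO and 279 ± 8.62 CPM in MI4OE, and variant genes 439 ± 23.2 and 440 ± 13.7 CPM (SD, n = 3). The log2 ratio of MI4OE to MI4KO was -0.02 for the cluster sum and 0.0023 for the variant sum. The ratio of cluster to variant counts was 0.638, 0.596 and 0.693 in MI4KO and 0.657, 0.625 and 0.619 in MI4OE. On the TPM scale, which divides by transcript length, the cluster sum was 1.94 ± 0.155 times the variant sum in MI4KO and 1.85 ± 0.0493 times in MI4OE (SD, n = 3). The order of the classes on this scale rests on the deposited lengths, which were shorter than in GENCODE for abundant genes of both classes, such as Hist1h1c (725 against 1560 bases) and H3f3a (1076 against 2841). The balance of the classes thus overlapped between genotypes on both scales.

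Summing the copies by locus and type before the edgeR fit left 9 tested sums. None had an unadjusted p under 0.05, and the nearest was Hist1 H2A, at a log2 difference of 0.79 (SE 0.37, unadjusted p = 0.0687, adjusted p = 0.690). Its 13 genes were sparse, at 1.13 ± 0.363 CPM in MI4KO and 1.96 ± 0.649 CPM in MI4OE (SD, n = 3).

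The most abundant variant genes were H3f3a and H1f0, which encode an H3 and a linker histone. H3f3a and H3f3b encode the same replacement H3 protein. H3f3a had 174, 225 and 228 TPM in MI4KO and 227, 213 and 246 TPM in MI4OE, and its log2 difference was 0.08 (edgeR adjusted p = 0.942). H3f3b had 25.8, 29.6 and 31.5 TPM in MI4KO and 37.4, 34.1 and 34.3 TPM in MI4OE. Its MI4OE libraries lay higher on the TPM scale without overlap, but overlapped on the CPM scale, and the edgeR fit gave a log2 difference of 0.23 (SE 0.17, adjusted p = 0.825). H1f0, the linker histone of differentiated cells, had 63.6, 96.5 and 81.0 TPM in MI4KO and 50.5, 91.4 and 89.7 TPM in MI4OE, with a log2 fold change of -0.12. H1fx, another linker histone, was far lower, at 0.280, 0.840 and 4.34 TPM in MI4KO and 1.61, 1.02 and 1.56 TPM in MI4OE. Its log2 difference was -0.43. The sign changed in at least 1 alternative analysis for 5 of the 10 tested variant genes, H1f0, H1fx, H2afj, H2afv and H2afy, and among the genes named elsewhere also for Hist2h2aa1, Hist3h2a, Slbp, Npat and Mki67.

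The H2A variants had close group means as well. H2afz and H2afv encode the H2A.Z proteins, which sit at promoters. H2afz had 65.9, 71.6 and 65.1 TPM in MI4KO and 51.3, 77.2 and 65.8 TPM in MI4OE, with a log2 fold change of -0.14. H2afv had a log2 fold change of 0.06, with 27.3 to 39.8 TPM in MI4KO and 33.9 to 39.8 TPM in MI4OE. H2afx, whose protein is phosphorylated around DNA breaks, had 10.8, 13.2 and 12.7 TPM in MI4KO and 10.3, 12.4 and 12.6 TPM in MI4OE, with a log2 fold change of -0.11. H2afj had 10.5 to 16.3 TPM in MI4KO and 13.3 to 20.9 TPM in MI4OE, with a log2 fold change of 0.24. Over these 4 genes the adjusted p ran from 0.883 to 0.963 in the edgeR fit.

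H2afy and H2afy2 encode macroH2A, an H2A with a large additional domain. H2afy had 47.6, 59.3 and 50.7 TPM in MI4KO and 43.2, 59.5 and 55.8 TPM in MI4OE, and its log2 difference was -0.06 (edgeR adjusted p = 0.947). It is quantified as 4 transcripts, of which the one of 1953 bases took 55.8%, 43.5% and 54.0% of the counts in MI4KO and 34.9%, 43.5% and 39.9% in MI4OE. The one of 1950 bases took 44.2%, 54.4% and 42.9% in MI4KO and 62.4%, 55.1% and 56.6% in MI4OE, and lay higher in each MI4OE library. This division was not tested. H2afy2 was scarce, with 0.06 to 0.540 TPM in MI4KO and 0.370 to 0.530 TPM in MI4OE and a log2 difference of 0.67 (SE 0.66).

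The place of the genes along chromosome 13 was compared, since the Hist1 cluster lies on the same chromosome as Irf4. Gene order was taken from RefSeq, as the build behind the deposited files was not given in the sources used here. In this order the tested genes run from Hist1h2bl through Hist1h2ao, Hist1h2bk, Hist1h4i and Hist1h2bj, the 5 at the end away from Irf4, of which 4 were lower in MI4OE at an unadjusted p under 0.05. After Zfp322a and Abt1 follow Hist1h4h, Hist1h1d, Hist1h3d, Hist1h2be, Hist1h1e, Hist1h2bc, Hfe and Hist1h1c, none of which passed. Hist1h2ba comes last, at the end towards Irf4. The 3 genes in this stretch that encode no histone, Zfp322a, Abt1 and Hfe, had log2 fold changes of 0.21, 0.12 and 0.79. Between Hist1h2ba and Irf4 there were 17 tested genes, of which 1, Tdp2, had an unadjusted p under 0.05, where 7.58% of all genes did, at a log2 difference of -0.65 (edgeR adjusted p = 0.585). The order was examined after the values were seen and carries no test. The floxed line is named B6.129S1-Irf4tm1Rdf/J in the study. Whether sequence of another strain lies beside that allele was not tested, and it cannot be told apart from the genotype here.

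**Figure D5:**
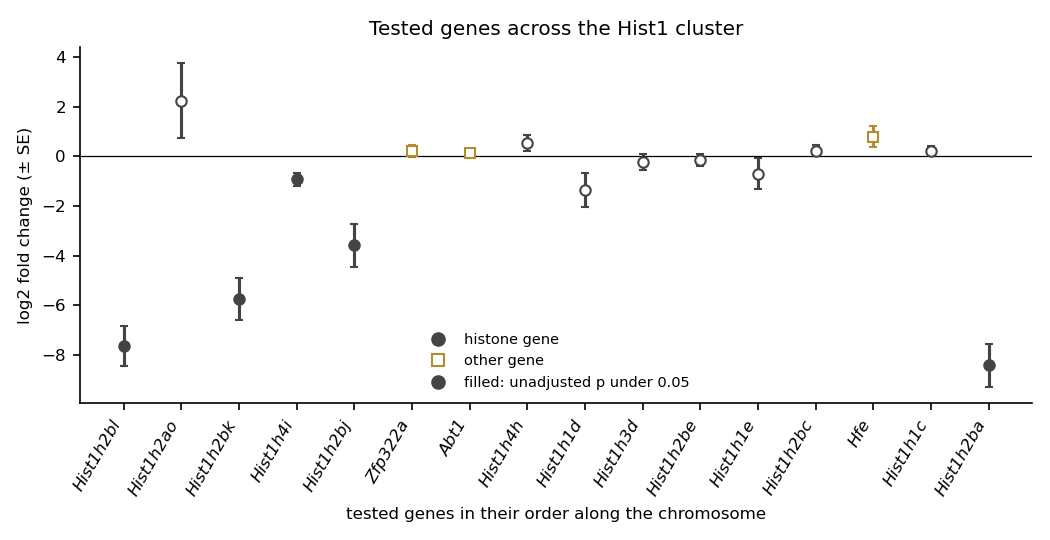
Log2 fold change of the tested genes across the Hist1 cluster in their order along the chromosome, with bars of 1 standard error. Filled points mark an unadjusted p under 0.05, and 4 of the 5 genes at the left end, away from Irf4, are filled, as is Hist1h2ba at the right end.

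Promoters of the cluster genes were searched for the elements known to drive them, in the 300 bases from 250 before to 50 after the transcript start (RefSeq, GRCm38.p6), a table in which 74 of the 82 genes were matched. Matches were counted for each motif on its own, overlapping ones included. CCAAT on either strand, the letters bound by factors such as NF-Y, was present in 16 of 16 cluster H2B genes with a promoter, against 41.1% of 27025 genes. It was present in 53 of all 62 cluster genes, but in 3 of 12 cluster H4 genes, and in 8 of 12 variant genes. The octamer ATTTGCAT on either strand, known from H2B promoters, was present in 7 of the 16 H2B genes, in 14 of the 62 cluster genes and in 0 of the 12 H4 genes, against 1.97% of all genes. TATAAA on the sense strand was present in 48.4% of 62 cluster genes, among them 4 of 16 H2B and 8 of 12 H4 genes, in 8.33% of 12 variant genes and in 9.77% of all genes. The core of the interferon-stimulated response element, which interferon regulatory factors bind, was searched on either strand and was present in 2 cluster genes, Hist1h2be and Hist1h3h, and in 3.99% of all genes. It was present in 0 of the 12 variant genes. The 250 bases before the start of Hist1h2bk and Hist1h2bl, chosen because both were near absent from MI4OE, are given with CCAAT, its reverse complement ATTGG and the octamer in capitals.
Hist1h2bk (chr13:22035571-22035820, plus strand): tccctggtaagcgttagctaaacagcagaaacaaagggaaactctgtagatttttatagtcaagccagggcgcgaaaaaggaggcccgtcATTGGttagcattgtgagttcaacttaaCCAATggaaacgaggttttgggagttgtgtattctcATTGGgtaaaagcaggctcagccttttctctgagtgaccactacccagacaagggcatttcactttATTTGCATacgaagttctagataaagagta
Hist1h2bl (chr13:21716184-21716433, minus strand): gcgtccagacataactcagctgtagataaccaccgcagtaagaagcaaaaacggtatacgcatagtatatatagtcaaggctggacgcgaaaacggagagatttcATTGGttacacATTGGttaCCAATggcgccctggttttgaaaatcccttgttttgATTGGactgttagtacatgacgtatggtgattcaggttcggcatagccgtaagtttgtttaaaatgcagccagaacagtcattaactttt
Hist1h2bk thus holds 3 CCAAT matches and 1 octamer, and Hist1h2bl holds 4 CCAAT matches and no octamer. Of the other H2B genes lower in MI4OE, Hist1h2bj holds 5 CCAAT matches and no octamer, and Hist1h2ba holds 4 CCAAT matches, 1 octamer and 1 TATAAA. The octamer was thus not common to these 4 genes. Any part of their promoters in the differences was not tested.

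Genes that make, process and place histones gave no call at an unadjusted p under 0.05, where 7.58% of all genes did. Of 17 genes for the synthesis and end processing of cluster mRNA, 16 were tested, 11 lower and 5 higher in MI4OE, and 0 had an unadjusted p under 0.05. Slbp, whose protein binds the stem-loop, had 2.33, 3.53 and 3.93 CPM in MI4KO and 4.03, 3.39 and 2.74 CPM in MI4OE, with a log2 fold change of 0.05. Npat, a coactivator of cluster genes, had 2.33, 5.86 and 3.49 CPM in MI4KO and 2.26, 4.40 and 3.53 CPM in MI4OE, with a log2 fold change of -0.19. Of 23 histone chaperone and exchange genes 20 were tested, 9 lower and 11 higher, and again 0 had an unadjusted p under 0.05. The groups did not overlap in 3 of these 20, or 15%, against 12.8% of all genes. They were Atrx, which helps to place H3.3 and had 16.7, 21.04 and 17.6 CPM in MI4KO and 26.4, 23.4 and 21.7 CPM in MI4OE (unadjusted p = 0.0527 by edgeR), Supt16, with a log2 difference of 0.28, and Supt6, with -0.19. These were named after their values were seen.

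Genes of S phase and proliferation ranged from Rrm1, a ribonucleotide reductase subunit with 26.2 to 31.0 CPM, to genes too scarce to be tested. Of 26 such genes 16 were tested, 11 lower and 5 higher in MI4OE with a median log2 difference of -0.17, and 1 had an unadjusted p under 0.05, or 6.25%, near the share of all genes. This was Rrm2, a subunit of the enzyme that makes deoxynucleotides, which had 0.205, 0.198 and 0.302 CPM in MI4KO and 0.886, 0.454 and 0.707 CPM in MI4OE. The groups did not overlap, but Rrm2 reached the filter's cutoff only in MI4OE, so that its place among the tested genes rests on the difference. The log2 difference was 1.49 (SE 0.46, unadjusted p = 0.0128, edgeR adjusted p = 0.542). Mki67, the proliferation marker, had 0.287, 0.674 and 0.739 CPM in MI4KO and 1.38, 0.350 and 0.707 CPM in MI4OE, and its log2 difference was 0.48 (edgeR adjusted p = 0.891). Top2a, the topoisomerase of dividing cells, had 0.0819, 0.158 and 0.605 CPM in MI4KO and 0.984, 0.350 and 0.309 CPM in MI4OE and was too scarce to be tested. The groups overlapped in both proliferation markers. The groups did not overlap in 4 of the 16 tested genes, or 25%, against 12.8% of all genes, Rrm2 and Mcm5 being higher in MI4OE and Mcm2 and Tk1 lower. Mcm2, part of the replicative helicase, had 11.7, 13.7 and 11.3 CPM in MI4KO and 4.18, 9.997 and 9.85 CPM in MI4OE, with an unadjusted p of 0.0962 by edgeR. Mcm5 of the same helicase had a log2 difference of 0.80 and Tk1, a thymidine kinase, one of -0.34. Of the 10 genes of this list that were not tested, 7 overlapped between the groups, and Ccna2, Ccnb2 and Cdc20, which drive or time mitosis, were higher in every MI4OE library. Ccna2 had 0.043, 0.041 and 0.106 CPM in MI4KO and 0.475, 0.253 and 0.186 CPM in MI4OE. Cdc20 had 0.164, 0.079 and 0.134 CPM in MI4KO and 0.590, 0.315 and 0.397 CPM in MI4OE, and Ccnb2 had at most 0.123 CPM in MI4KO and at least 0.140 CPM in MI4OE. The genes of this paragraph other than Rrm2, Mki67 and Top2a were named after their values were seen. Ccna2, Ccnb2 and Cdc20 had few counts, at most 9.66 per library for Ccna2 and 12 for Cdc20. The share without overlap among all untested genes was not computed. In the fit with no filter Ccna2 and Cdc20 had an unadjusted p under 0.05 by edgeR's test. There 6.71% of all genes had this together with a 1.5-fold change.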

How the data were processed

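Stranded mRNA libraries of gastrocnemius were read as single reads of 50 bases, per the labels, and the authors mapped them to a UCSC transcript set with Bowtie2 2.1.0 and quantified them with RSEM 1.2.15 after demultiplexing with bcl2fastq 2.17 (submitters' processing notes). The authors deposited expected counts, estimated by RSEM for genes and transcripts without normalization, and TPM, in which RSEM also divides by transcript length. The authors' tables of fold changes and p-values were not used.

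After rounding, expected counts went into edgeR 4.0.16 (R 4.3.3). filterByExpr (minimum count 10, minimum total count 15) kept 12660 of 24054 genes, TMM gave the scaling, and the quasi-likelihood test was adjusted by Benjamini-Hochberg over all genes tested at 0.05. As in the study, genes changed 1.5-fold with unadjusted p under 0.05 were also counted. P-values measure the spread between these libraries, 3 per group, and an exact permutation test could not give a p below 0.1. Sums over copies were computed per library without a test, and, as an alternative, copies of 1 type and locus were summed before the edgeR fit. The code was tested on simulated data. Alternatives used DESeq2 1.42.0, edgeR's exact test, limma 3.58.1 on log2(TPM + 1) and log2(TPM + 0.1), other scalings and filters, summed copies and fits without each library. The histone genes and all lists were chosen with earlier results of these data known. Genes named were the histone genes with an unadjusted p under 0.05, the 10 most abundant cluster genes, every tested variant, Hist1h2bl, listed genes with an unadjusted p under 0.05, Slbp, Npat, Mki67, Top2a and Irf4. Others were named after their values were seen.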

Additional observations from a re-analysis of the deposited data

How the results depend on the processing

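The number of histone genes with an adjusted p under 0.05, 0 by edgeR's quasi-likelihood test, became 4 under DESeq2 and 4 under edgeR's exact test (Hist1h2ba, Hist1h2bj, Hist1h2bk and Hist1h2bl), 2 under limma with log2(TPM + 1), also 2 with log2(TPM + 0.1) (Hist1h2ba and Hist1h2bl), and 1 with bias-adjusted deviances, 1 with RLE factors and 1 with no filter (Hist1h2bl). Of all 12660 genes, 4 passed in each limma fit, 4 with bias-adjusted deviances and 4 with RLE factors. With no filter 4 of 17741 genes passed. The number of histone genes was 0 in each fit without 1 library. The 5 cluster genes past 1.5-fold with an unadjusted p under 0.05 became 0 when copies were summed, which leaves no single copy to call. They ran from 5 to 8 across fits without 1 library, with 8 when MI4OE replicate 2 was left out, 7 when MI4OE replicate 1 was and 7 when MI4KO replicate 3 was, where the share of all genes past the criterion was 10.2%, 4.56% and 7.56%, against 6.64% with all libraries. There were 7 with no filter, at 6.71% of all genes. For variant genes this ran from 0 to 1, the 1 being H2afy2 without MI4KO replicate 3, where its log2 fold change was 1.61. The cluster median was -0.0045 with summed copies and ran from -0.30 to -0.13 without 1 library. The variant median ran from -0.054 to 0.14, the latter without MI4KO replicate 3. The log2 ratio of the variant sum was 0.093 with total counts, a scaling that moved the median of all genes to 0.0896, and ran from -0.04 to 0.04 without 1 library, and that of the cluster sum ran from -0.11 to 0.07. Pathway genes with an unadjusted p under 0.05 numbered 1, and 3 with no filter, 0 at a mean CPM of at least 1, where Rrm2 was not tested, and 1 to 3 without 1 library. The 3 came without MI4KO replicate 2 and were Atrx, Cdc20 and Rrm2, and 2 came without MI4OE replicate 2. Rrm2 itself had an unadjusted p under 0.05 in 15 of the 16 alternatives that tested it. The adjusted p of Irf4 was 0.0587 without MI4KO replicate 1. Hist1h2ba, Hist1h2bj, Hist1h2bk, Hist1h2bl and Hist1h4i kept their direction in every alternative that tested them. The cause of these changes was not tested where none is given. No paired analysis was possible because libraries were numbered as deposited, and such numbers tie no MI4KO library to an MI4OE one. Counts of the 4 H2B genes were low, and single-copy values rest on reads that several copies share.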
